A study of Mus musculus with 16 samples.

Results

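The ATP-binding cassette (ABC) transporter genes of subfamilies A to G were examined in oxLDL-loaded mouse peritoneal macrophages (PM) with gain or loss of lipid droplet-associated hydrolase (LDAH). Members were chosen by gene symbol alone, an Abc prefix with a subfamily letter and a number, which matched 50 of the 48432 genes measured. RNA-seq was done in 4 groups of 4 samples each: LDAH-Tg PM, PM of their WT controls, LDAH-KO PM, and PM of the WT controls of LDAH-KO. All PM were elicited with 3% thioglycolate, harvested on day 5 and loaded for 48 h with oxLDL (50 μg/ml) in medium with 1% FBS, and all carry the strain label C57BL/6J. The transgene is driven by the *Csf1r* promoter and enhancer, which are active in macrophages and granulocytes, and its founders were B6D2F1 mice backcrossed to C57BL/6. The KO is global, with a cassette in place of the first coding exons. The genotype label of the controls of LDAH-Tg also names ApoE, and neither the Apoe background nor the age of the mice used for this RNA-seq is given in the sources used here.

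ABC transporters are membrane proteins that use ATP to move lipids, drugs, peptides, metals or conjugated anions across a membrane. In macrophages, ABCA1 passes cholesterol and phospholipid to lipid-poor apolipoprotein A-I and ABCG1 passes cholesterol to mature HDL, which makes them the main exits for cholesterol from foam cells. Both genes are classical targets of the liver X receptors (LXR, *Nr1h3* and *Nr1h2*), nuclear receptors that are switched on by oxysterols. Other members work inside the cell, in mitochondria, peroxisomes and lysosomes, and the E and F subfamilies do not span a membrane and serve translation.

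The values are the authors' mean transcripts per 1000000 (TPM) of each group, a scale per transcript length on which genes can be set side by side. With means alone, the spread between samples and the depth are unknown, and none of the differences below was tested. Differences are given as the log2 ratio of the means after adding 0.5 to each, which understates differences of genes near 1 TPM. A gene was compared where its mean over both groups was at least 1 TPM and neither group was listed at 0.

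The sequence upstream of *Abca1* is shown because *Abca1* is the member with the best known LXR element, and that of *Abcc5* because *Abcc5* had the largest difference of opposite sign in the LDAH-Tg and LDAH-KO comparisons. Both are RefSeq sequences of build GRCm38.p6, 150 bases up to the base before the start site, on the minus strand, at chr4:53159896-53160045 and chr16:20426395-20426544. Capitals mark, from the 5′ end, an E-box (CACGTG), a GC box (GGGCGG) and the LXR element (TGACC, a gap of 5 bases, TNACC and the base after it).
Abca1: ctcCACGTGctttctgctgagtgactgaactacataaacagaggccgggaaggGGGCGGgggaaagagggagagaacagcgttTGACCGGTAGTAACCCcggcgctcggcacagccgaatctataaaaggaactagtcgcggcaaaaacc
Abcc5: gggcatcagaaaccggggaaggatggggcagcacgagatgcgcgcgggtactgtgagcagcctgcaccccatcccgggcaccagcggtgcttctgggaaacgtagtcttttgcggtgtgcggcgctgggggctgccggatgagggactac
The LXR pattern was spelled after this *Abca1* element, so its match there is by construction. It was searched on both strands in windows of 250 bases before to 50 bases after the start, and 0.207% of 32851 such windows held it, among them that of *Abca1* alone of the 38 members with a window. *Abcg1* had no window and was not searched. The E-box was in 7.15% of all windows and in 6 of the 38, and the GC box in 35.7% of all windows and in 18 of the 38. The *Abcc5* stretch held none of these letters.

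The study's qPCR primers show which stretch of *Abca1* and *Abcg1* RNA such an assay reads. Capitals are not used, since each forward primer matched its transcript, and each reverse primer the complement, over its whole length.
Abca1 forward: tggatctatttttgcactgga
Abca1 reverse: cagcaggactgtcacagcttta
Abcg1 forward: aattcatccacgcctacagc
Abcg1 reverse: tgggttccgtttgtctgtct
On GRCm38, with GENCODE M21 models, both *Abca1* primers lie in the 3′ UTR, in exon 50 of 50 of Abca1-201, at chr4:53030972-53030992 and chr4:53030792-53030813, and bound 201 bases. Both *Abcg1* primers lie in the 3′ UTR, in exon 15 of 15 of Abcg1-201, at chr17:31117790-31117809 and chr17:31117874-31117893, and bound 104 bases. The entry of *Abca1* in the authors' table spans its primers. That of *Abcg1* ends at 31115777, which is 2013 bases short of its forward primer, so this end lies outside the entry behind its TPM.

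Of the 50 members, 30 were compared in LDAH-KO PM and 27 of these also in LDAH-Tg PM, while *Abca5*, *Abca6* and *Abca9* were too low in the LDAH-Tg line. Another 14 members were below the minimum. Among them *Abcb9*, a lysosomal peptide transporter, had 0.602 to 0.806 TPM, *Abca8b* had 0.471 to 0.623 TPM, and 11 others reached at most 0.242 TPM. The remaining 6, *Abcg8*, *Abcc6*, *Abca12*, *Abca15*, *Abca16* and *Abcb5*, were listed at 0 in every group. A listed 0 may not mean absent RNA, since the macrophage marker *Lyz2* was also listed at 0 in some groups. *Abcg5*, which pairs with *Abcg8* to export sterols from liver and gut cells, had 0.0155 TPM in LDAH-Tg PM and was listed at 0 in the other groups. The locus entry was one that holds at least 1 other gene for 27 of the 50 members and for 16 of the 30 compared.

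*Abcg1* (ENSMUSG00000024030.6, chr17:31057675-31117988 in GENCODE M21, plus strand) was the most abundant member in every group, with 219.7 TPM in LDAH-Tg PM, against 250.7 TPM in their WT controls, and 191.2 TPM in LDAH-KO PM, against 217.0 TPM in their WT controls. *Abcc5* (ENSMUSG00000022822.15, chr16:20331303-20426394, minus strand), an exporter of organic anions such as cyclic nucleotides, came next in every group, with 161.8 TPM in LDAH-Tg PM, against 121.1 TPM in their WT controls, and 74.1 TPM in LDAH-KO PM, against 101.6 TPM in their WT controls. *Abca1* (ENSMUSG00000015243.4, chr4:53030787-53159895, minus strand) had 69.3 TPM in LDAH-Tg PM, against 76.5 TPM in their WT controls, and 63.3 TPM in LDAH-KO PM, against 82.2 TPM in their WT controls. Only *Abcg1* and *Abcc5* were above it in 3 groups, and in LDAH-KO PM its rank was 5. These 3 genes made up 48.5% of the summed TPM of all members in LDAH-Tg PM and 48.3% in their WT controls, and 38.3% in LDAH-KO PM and 40.4% in their WT controls. The summed TPM of the 50 members was 930.6 in LDAH-Tg PM and 928.2 in their WT controls, and 857.1 in LDAH-KO PM and 993.4 in their WT controls.

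**Figure D1:**
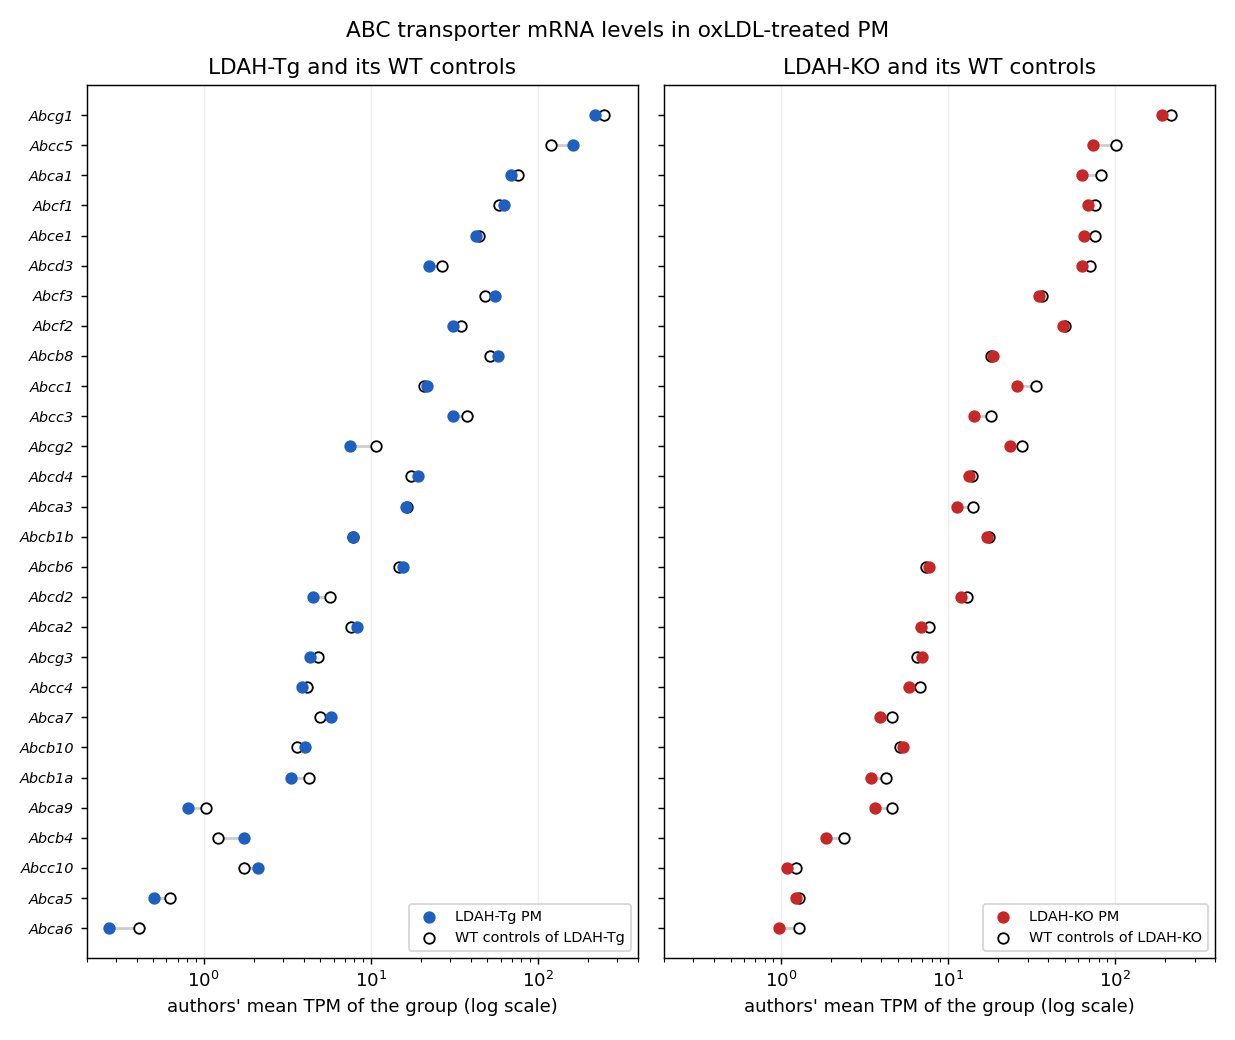
Mean TPM of 28 of the 30 ABC transporter genes compared (log scale), ordered by their mean over the 4 groups; filled points are LDAH-Tg PM (left panel) and LDAH-KO PM (right panel), and open points are the WT controls of each. *Abcg1* is at the top in every group, from 191.2 to 250.7 TPM, and in the right panel most filled points lie left of the open ones.

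No member differed by a factor of 1.5 in either comparison. Among all genes, 1.95% of 11395 did so in LDAH-Tg PM (1.26% higher and 0.685% lower) and 2.22% of 11289 in LDAH-KO PM (0.39% higher and 1.83% lower), so a count of 0 among 27 or 30 members is near that background. A smaller size, 0.32 on the log2 scale, was therefore used as well. In LDAH-Tg PM 2 members, *Abcc5* and *Abcb4*, were higher by at least this size (7.55% of all genes) and 3, among them *Abcg2* and *Abcb1a*, were lower (5.07% of all genes). In LDAH-KO PM 4 members, *Abcc5*, *Abca1*, *Abcc1* and *Abcc3*, were lower by this size (9.85% of all genes) and none was higher (2% of all genes).

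*Abca1* and *Abcg1* were lower than in the controls in both comparisons. For *Abca1* the log2 ratio was -0.14 in LDAH-Tg PM and -0.37 in LDAH-KO PM. For *Abcg1* it was -0.19 in LDAH-Tg PM and -0.18 in LDAH-KO PM. By qPCR of oxLDL-treated PM, the study reported both genes significantly higher in LDAH-Tg PM and significantly lower in LDAH-KO PM. It also stated that its RNA-seq did not identify them. Its other evidence included higher ABCA1 protein in bone marrow-derived macrophages and higher *Abca1* in macrophages microdissected from LDAH-Tg lesions. In LDAH-Tg bone marrow-derived macrophages, knockdown of LXRα hindered the enhanced expression of both genes. In LDAH-KO macrophages, a synthetic LXR agonist rescued both. None of these assays is part of the values here. The ratios given here are of group means and were not tested. Of the other members listed as sterol and phospholipid exporters, *Abca7*, which moves phospholipid, was the only one compared, and *Abcb4* is described with the bile and channel members. *Abca7* had 5.77 TPM in LDAH-Tg PM, against 5.00 TPM in their WT controls, and 3.94 TPM in LDAH-KO PM, against 4.61 TPM in their WT controls. *Abcg4*, a close relative of *Abcg1*, stayed at or below 0.0185 TPM in every group.

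The LXR genes that control *Abca1* and *Abcg1* differed from their controls by at most 0.21 on the log2 scale. *Nr1h3*, which encodes LXRα, had 66.9 TPM in LDAH-Tg PM, against 65.0 TPM in their WT controls, and 69.7 TPM in LDAH-KO PM, against 65.3 TPM in their WT controls. *Nr1h2*, which encodes LXRβ, had log2 ratios of 0.21 in LDAH-Tg PM and -0.13 in LDAH-KO PM. In a list of 24 LXR and cholesterol efflux genes, LDAH-Tg PM had 11 higher and 13 lower, 0 of them past a factor of 1.5, and the median was -0.01. All genes compared had a median of 0.002 in LDAH-Tg PM and -0.08 in LDAH-KO PM, against which the medians of this and the later lists can be read. By sign, 49.5% of all genes compared were lower in LDAH-Tg PM and 66.6% in LDAH-KO PM. In LDAH-KO PM 7 were higher and 16 lower of 23 compared, with a median of -0.06, and 1 was past the factor: *Ncor1*, a corepressor of nuclear receptors, with 56.5 TPM in LDAH-KO PM, against 85.6 TPM in their WT controls. *Apoe*, an acceptor of macrophage cholesterol and an LXR target, had 7947 TPM in LDAH-Tg PM, against 8775 TPM in their WT controls, and 10404 TPM in LDAH-KO PM, against 9565 TPM in their WT controls. *Ldah* itself had 124 TPM in LDAH-Tg PM, against 28.5 TPM in their WT controls, and 27.9 TPM in LDAH-KO PM, against 44.5 TPM in their WT controls, and the exons that the reads in LDAH-KO PM came from are not resolved in such a mean.

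A second list held 15 genes whose products bind, modify or degrade ABCA1 or ABCG1. In LDAH-Tg PM 3 of these were higher and 12 lower (median -0.12), beside 49.5% of all genes that were lower. In LDAH-KO PM 1 was higher and 14 lower (median -0.10), beside 66.6% of all genes that were lower. The 1 gene past a factor of 1.5 was *Nedd4*, a ubiquitin ligase, with 4.08 TPM in LDAH-KO PM, against 7.99 TPM in their WT controls.

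Of 11 drug and organic anion exporters 8 were compared, with 3 higher and 5 lower in LDAH-Tg PM and all 8 lower in LDAH-KO PM, beside 49.5% and 66.6% of all genes that were lower in these comparisons. *Abcc5* was the only member past 0.32 in opposite directions, at 0.42 in LDAH-Tg PM and -0.45 in LDAH-KO PM on the log2 scale. Among 10858 genes compared in both, 1.02% were higher in LDAH-Tg PM and lower in LDAH-KO PM at this size. *Abcc1*, which exports leukotrienes and glutathione conjugates, had 21.7 TPM in LDAH-Tg PM, against 20.8 TPM in their WT controls, and 26.1 TPM in LDAH-KO PM, against 33.7 TPM in their WT controls (log2 ratio -0.37). *Abcc3*, an exporter of glucuronides and bile acids, was lower in both, with 31.2 TPM in LDAH-Tg PM, against 37.5 TPM in their WT controls, and 14.3 TPM in LDAH-KO PM, against 18.1 TPM in their WT controls. The log2 ratios of *Abcc3* were -0.26 in LDAH-Tg PM and -0.33 in LDAH-KO PM.

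*Abcg2*, an exporter of urate and many drugs, had the largest difference of any member in LDAH-Tg PM. It had 7.55 TPM in LDAH-Tg PM, against 10.8 TPM in their WT controls (log2 ratio -0.49). In LDAH-KO PM *Abcg2* had 23.7 TPM and in their WT controls 27.8 TPM. *Abcb1a*, which encodes P-glycoprotein, had 3.34 TPM in LDAH-Tg PM, against 4.31 TPM in their WT controls, and 3.48 TPM in LDAH-KO PM, against 4.24 TPM in their WT controls. Its close copy *Abcb1b* had 7.89 TPM in LDAH-Tg PM, against 7.90 TPM in their WT controls, and 17.1 TPM in LDAH-KO PM, against 17.6 TPM in their WT controls. How reads that fit both copies were counted was not given in the sources used here, so the split between *Abcb1a* and *Abcb1b* is uncertain. *Abcc10* and *Abcc4*, which also export conjugated anions, had ratios (log2) of 0.22 and -0.10 in LDAH-Tg PM and -0.12 and -0.19 in LDAH-KO PM.

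Of 4 mitochondrial half-transporters, 3 were higher and 1 lower in LDAH-KO PM, beside 33.4% and 66.6% of all genes. In LDAH-KO PM the log2 ratio was 0.05 for *Abcb8*, 0.07 for *Abcb6* and 0.04 for *Abcb10*, all below 0.1 in size. In LDAH-Tg PM the same 3 were higher and 1 lower, beside 50.5% and 49.5% of all genes. *Abcb8* had 58.2 TPM in LDAH-Tg PM, against 51.6 TPM in their WT controls. The locus entry of *Abcb10* is one that 189 genes share. In a list of 14 heme and iron-sulfur genes LDAH-Tg PM had 7 higher and 7 lower (median 0.02), and LDAH-KO PM 9 higher and 5 lower (median 0.01), with 0 past a factor of 1.5.

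The D subfamily ranged in level. *Abcd3*, which imports branched-chain and bile acid precursors into peroxisomes, had 22.4 TPM in LDAH-Tg PM, against 26.8 TPM in their WT controls, and 63.3 TPM in LDAH-KO PM, against 70.6 TPM in their WT controls. For *Abcd2*, an importer of fatty acyl-CoA into peroxisomes, the ratios were -0.30 in LDAH-Tg PM and -0.13 in LDAH-KO PM on the log2 scale. *Abcd4*, which takes part in the release of cobalamin from lysosomes, had log2 ratios of 0.14 in LDAH-Tg PM and -0.05 in LDAH-KO PM. In the list of 11 peroxisome and cobalamin genes, LDAH-Tg PM had 3 higher and 8 lower (median -0.16), and LDAH-KO PM 5 higher and 6 lower (median -0.09), with 0 past a factor of 1.5.

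*Abce1*, which splits ribosomes after termination, had 42.6 TPM in LDAH-Tg PM, against 44.5 TPM in their WT controls, and 64.9 TPM in LDAH-KO PM, against 76.0 TPM in their WT controls. *Abcf1*, *Abcf2* and *Abcf3*, which act in translation, had log2 ratios of 0.09, -0.16 and 0.21 in LDAH-Tg PM and of -0.13, -0.04 and -0.06 in LDAH-KO PM. Of 9 partners in ribosome recycling and stress signalling, LDAH-Tg PM had 3 higher and 6 lower (median -0.05), and LDAH-KO PM 2 higher and 7 lower (median -0.05). *Abca3* and *Abca2*, lipid transporters of lysosome-like organelles, had log2 ratios of -0.02 and 0.12 in LDAH-Tg PM and of -0.31 and -0.14 in LDAH-KO PM.

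Of the 7 members listed together as bile and channel members, a list that also holds *Abcg3*, 2 were compared. *Abcb4*, a phospholipid translocator best known from bile canaliculi, had 1.75 TPM in LDAH-Tg PM, against 1.22 TPM in their WT controls (log2 ratio 0.38). In LDAH-KO PM *Abcb4* had 1.86 TPM and in their WT controls 2.398 TPM (log2 ratio -0.29). *Abcg3*, a rodent relative of *Abcg2*, was the only member lower in LDAH-Tg PM and higher in LDAH-KO PM, with log2 ratios of -0.13 and 0.09.

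**Figure D2:**
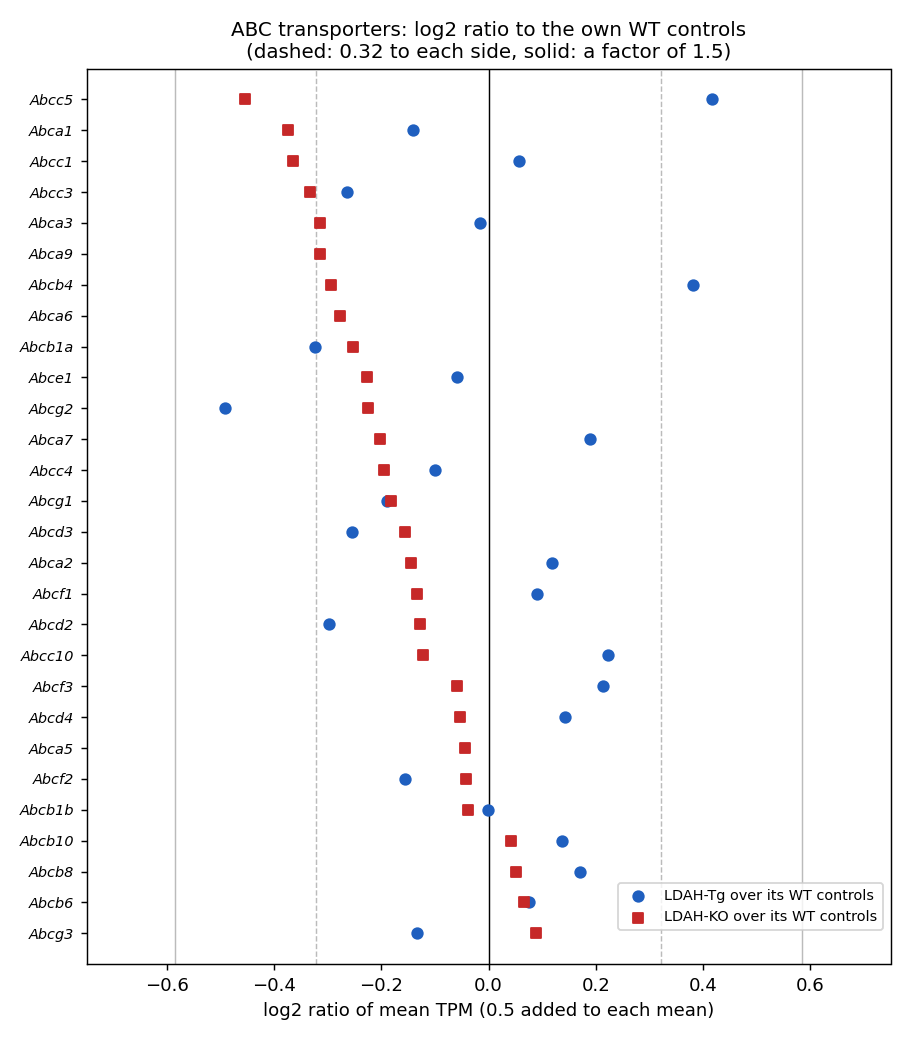
Log2 ratio of mean TPM (0.5 added to each mean) of ABC transporter genes to their own WT controls, with circles for LDAH-Tg PM (25 of the 27 genes) and squares for LDAH-KO PM (28 of the 30 genes), ordered by the ratio in LDAH-KO PM; dashed lines mark 0.32 to each side and solid lines a factor of 1.5. No point passes a solid line, and *Abcc5* passes a dashed line on each side.

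By sign alone, in LDAH-Tg PM 13 of 27 members were higher and 14 lower, beside 50.5% and 49.5% of all genes, with a median of -0.001 for the members and 0.002 for all genes. In LDAH-KO PM 26 of 30 members were lower and 4 higher, beside 66.6% and 33.4% of all genes. The median log2 ratio in LDAH-KO PM was -0.19 for the members and -0.08 for all genes. After scaling by the median ratio of all genes, 21 of the 30 were lower in LDAH-KO PM beside 50.0% of all genes, and after quantile normalization 20 were lower beside 47.6%. At 0.32, the 4 members lower in LDAH-KO PM became 1 with median-ratio scaling (*Abcc5*) and 2 with quantile normalization (*Abcc5* and *Abca1*).

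Set side by side, 10 of the 27 members were higher in LDAH-Tg PM and lower in LDAH-KO PM, beside 32.3% of all genes. Another 13 were lower in both (33.9% of all genes), among them *Abca1* and *Abcg1*, 3 were higher in both (16.7%), and 1 showed the reverse (17.1%). Across the 27 members the log2 ratios of the LDAH-KO and LDAH-Tg comparisons had a Pearson r of 0.07 and a Spearman rho of 0.17, and across the 10858 genes of -0.04 and -0.03. These are descriptions across genes of the same 4 columns, and genes are not replicates.

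The log2 ratio in LDAH-KO PM went with transcript length over all genes, taken as the longest coding transcript of GENCODE M21. Spearman rho with length was -0.63 over 10431 genes and -0.58 over the 30 members. In the longest of 10 equal bins of genes, 6561 to 40378 nt, the median was -0.28 and 96.0% were lower, and in the shortest bin the median was 0.11 and 21.3% were lower. ABC transporters have long transcripts: the median length was 5122.5 nt for the members and 3069 nt for all genes compared, and 26 of the 30 were above the median of all genes. In the 2 longest bins 15 of 15 members were lower, and in the 5 shortest 2 of 4 were. The length bins that hold the members had on average 86.9% of genes lower, beside the 86.7% of members that were lower.

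Relative to genes of like length, 17 of the 30 members were below and 13 above the median of their bin, with a median difference of -0.026. *Abca1*, with a transcript of 10262 nt, had -0.37 beside -0.28 for its bin. *Abcg1*, with 5832 nt, had -0.18 beside -0.20. The authors' entry of *Abcg1* ends 2211 bases short of the GENCODE M21 gene. Its length and GC content here may therefore not be those behind its TPM, and its place relative to like genes is uncertain. *Abcc5*, with 5811 nt, had -0.45 beside -0.20, below the 10th percentile of genes of like length (-0.35), and *Abcc3* had -0.334 beside a 10th percentile of -0.330. *Abcg3*, *Abcb8*, *Abcb10* and *Abca5* lay above the 90th percentile. In all, 6 of 30 members (20%) were outside these limits, and 20% of all genes are by construction.

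**Figure D3:**
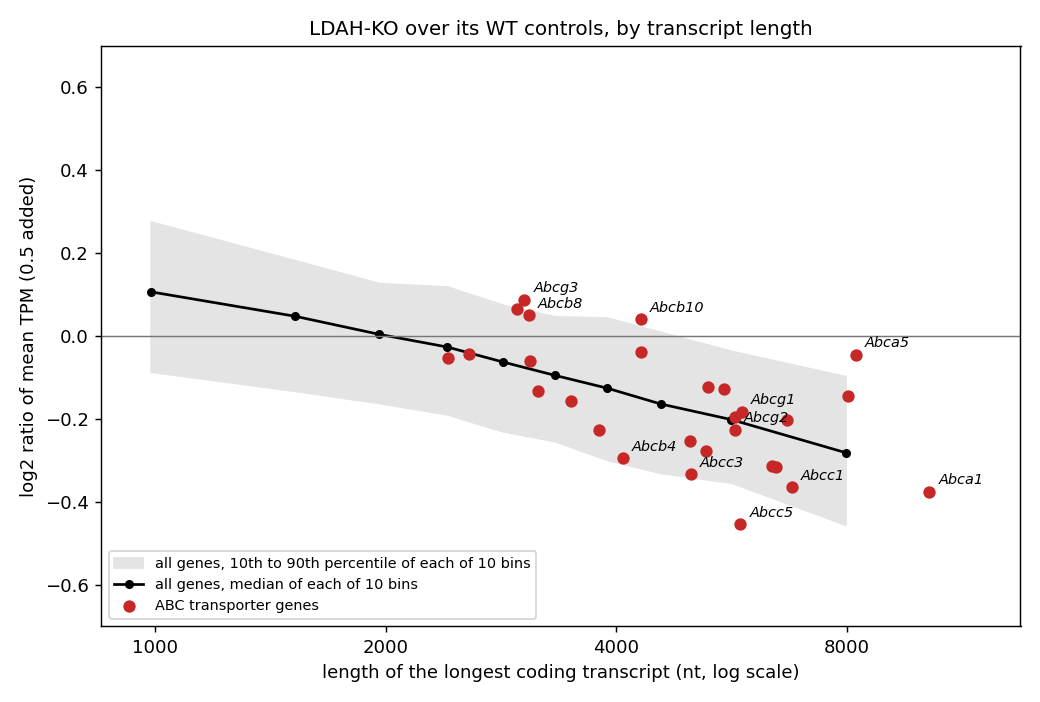
Log2 ratio of LDAH-KO PM over their WT controls against the length of the longest coding transcript (log scale); red points are 28 of the 30 ABC transporter genes, the black line joins the medians of 10 bins of all genes and the grey band runs from their 10th to their 90th percentile. The medians of all genes go down from 0.11 in the shortest bin to -0.28 in the longest, and *Abcc5* lies below the band.

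The log2 ratio in LDAH-Tg PM went with GC content, with a rho of 0.37 over 10433 genes and 0.62 over the 27 members, while rho with length over all genes was -0.02. In LDAH-KO PM rho with GC content was smaller, at 0.19 over 10431 genes and 0.20 over the 30 members. All 8 members with a GC content of 55% or more were higher in LDAH-Tg PM, among them *Abca7* and *Abcb8*, beside 26.9% of all such genes that were lower. All 6 members below 45% were lower, among them *Abcg2* (39.2% GC), beside 68.5% of all such genes. Relative to genes of like GC content *Abcc5* was higher by 0.42, *Abcb4* higher by 0.41, and *Abcg2* had -0.38, *Abcc3* -0.30, *Abcg1* -0.21 and *Abca1* -0.11. *Abcc5* and *Abcb4* lay above the 90th percentile of genes of like GC content, and *Abcg2*, *Abcb1a*, *Abcc3* and *Abcg1* below the 10th. These 6 of 27 members are 22.2%, beside 20% of all genes by construction. The part that length and GC content have in these ratios was not tested beyond this.

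**Figure D4:**
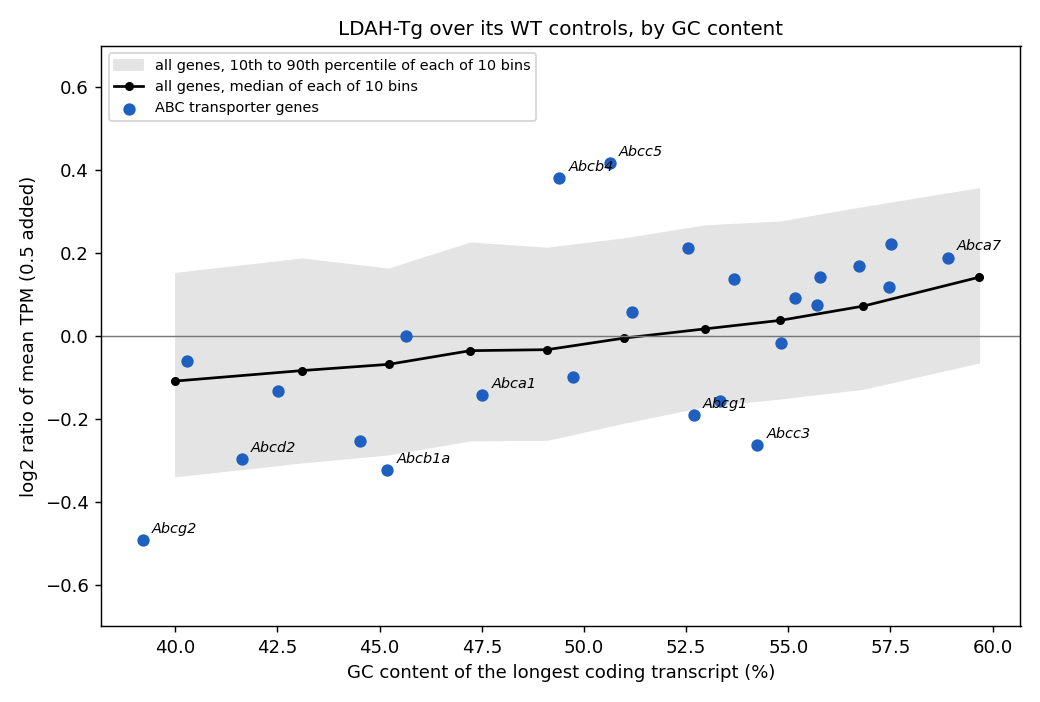
Log2 ratio of LDAH-Tg PM over their WT controls against the GC content of the longest coding transcript; blue points are 25 of the 27 ABC transporter genes, the black line joins the medians of 10 bins of all genes and the grey band runs from their 10th to their 90th percentile. *Abcg2* lies at the AT-rich end with a ratio of -0.49, and *Abcc5* and *Abcb4* lie above the band.

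The WT groups of the mouse lines differed from each other in many members. WT controls of LDAH-Tg differed from WT controls of LDAH-KO by a factor of 1.5 in 13 of 28 members (38.6% of all genes), 3 higher (12.1% of all genes) and 10 lower (26.5% of all genes). *Abcg2* had 10.8 TPM in WT controls of LDAH-Tg and 27.8 TPM in WT controls of LDAH-KO, a log2 ratio of -1.32. *Abcd3* had -1.38, while *Abcb8* had 1.49 and *Abcc3* 1.03. All 7 members with a GC content below 45% were lower in WT controls of LDAH-Tg, beside 79.2% of all such genes, and 6 of 8 members at 55% or more were higher, beside 64.2% of all such genes. By sign, 12 of the 28 members were higher (39.3% of all genes) and 16 lower (60.7% of all genes). Spearman rho with GC content was 0.74 over the 28 members and 0.42 over all genes, and rho with length was -0.19 and -0.35. Mouse line cannot be told apart here from a library batch, if there was any, so the genotypes are compared only with their own controls.

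Markers of cells other than macrophages were not equal between groups. The 7 fibroblast markers summed to 23.9 TPM in LDAH-Tg PM, against 23.3 TPM in their WT controls. In LDAH-KO PM they summed to 16.4 TPM, against 32.4 TPM in their WT controls, and all 7 were lower. The 4 compared, *Col3a1*, *Pdgfra*, *Col1a1* and *Dcn*, were past a factor of 1.5 in LDAH-KO PM, at -1.31, -1.17, -1.09 and -0.74 (log2). In LDAH-Tg PM 5 of the 7 were higher and 2 lower, and *Col1a1* was past this factor, at 0.66. The mesothelial markers summed to 3.88 TPM in LDAH-KO PM, against 6.95 TPM in their WT controls, with 5 of 6 lower. Of these, *Upk3b* and *Wt1* were lower by more than a factor of 1.5, with log2 ratios of -0.94 and -0.82. In LDAH-Tg PM the mesothelial sum was 7.20 TPM, against 6.72 TPM in their WT controls. Neutrophil markers summed to 99.5 TPM in LDAH-Tg PM, against 107.1 TPM in their WT controls, and to 68.3 TPM in LDAH-KO PM, against 63.8 TPM in their WT controls. Nearly all of each sum was *S100a8*, since *S100a9* reached at most 0.74 TPM and *Retnlg* 0.033 TPM, and *Ly6g* was listed at 0 in every group. The 5 pericyte and smooth muscle markers summed to 5.37 TPM in LDAH-Tg PM, against 4.72 TPM in their WT controls, and to 4.29 TPM in LDAH-KO PM, against 8.004 TPM in their WT controls, with 4 of 5 lower in LDAH-KO PM. Most of these sums was *Acta2*, a smooth muscle actin, whose log2 ratio in LDAH-KO PM was -0.83, past a factor of 1.5. Endothelial, B cell, T cell and mast cell markers each summed to at most 2.21 TPM in any group. In bulk RNA, fewer cells of a type and less RNA per cell cannot be told apart. *Lyz2*, a macrophage marker, was listed at 10105 TPM in LDAH-Tg PM and at 0 in the other 3 groups, so a listed 0 may not mean absent RNA. The 7 other macrophage markers summed to 5255 TPM in LDAH-Tg PM, against 5374 TPM in their WT controls. In LDAH-KO PM they summed to 3594 TPM, against 3970 TPM in their WT controls. Most of each sum was *Cd68*. In LDAH-Tg PM 6 of the 7 were lower and 1 higher, with log2 ratios of -0.55 for *Adgre1* and -0.39 for *Itgam*. In LDAH-KO PM 4 were lower and 3 higher. The *Abca6* gene cluster, whose transport role is little known, is given here as well. *Abca9* had 3.65 TPM in LDAH-KO PM, against 4.65 TPM in their WT controls, and *Abca6* 0.973 TPM in LDAH-KO PM, against 1.29 TPM in their WT controls. The log2 ratios were -0.31 for *Abca9* and -0.28 for *Abca6*, beside a median of -0.20 for genes of like length. Both were also lower in LDAH-Tg PM, below the minimum. There *Abca9* had 0.806 TPM, against 1.04 TPM in the WT controls, and *Abca6* 0.272 TPM, against 0.411 TPM. *Abca8b* had 0.515 TPM in LDAH-KO PM, against 0.623 TPM in their WT controls. *Abca8a*, named here because of its values, had 0.0301 TPM in LDAH-KO PM, against 0.577 TPM in their WT controls, both below the minimum. The part of other cells in these differences was not tested.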

How the data were processed

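Per the labels and the study's methods, the authors prepared stranded poly(A) libraries of PM and aligned the reads with STAR 2.4.2a to GRCm38 (mm10) after trimming with Trimmomatic. The authors' processing notes also name bcl2fastq 2.17.1.14, HTSeq, Cuffdiff 2.2.1 and DESeq2. The tool that made the TPM values and the annotation release are not given in the sources used here. The deposited table holds the authors' mean TPM of each of 4 groups (16 samples in all) for 48432 genes. Its 1 line with no gene, the column total, was left out. It has no column for a single sample, so no test was made, and sizes were counted instead.

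Log2 ratios used a pseudocount of 0.5, a minimum mean TPM of 1 and no group at 0, with a factor of 1.5 and a smaller size of 0.32 on the log2 scale. Length and GC content came from the longest coding transcript of GENCODE M21, in 10 bins of all genes. The members and lists were chosen with earlier results of these data known. The named genes were *Abca1* and *Abcg1*, members past a factor of 1.5, the 8 highest and 8 lowest ratios per comparison, the 10 most abundant members, list genes past 1.5, *Nr1h3*, *Nr1h2*, *Ldah* and *Apoe*. Other members named to complete a role were named after their values were seen. Alternatives were pseudocounts of 0.1 and 1, no minimum or 5 TPM, median-ratio scaling, quantile normalization, a size of 0.32, a factor of 2, and genes with a group at 0 kept. Centring on length and on GC bins was chosen after seeing the data. The values of 2 members, which stay in the counts, are not reported here. The calls at a factor of 1.5 and the length bins were checked on simulated data, with larger changes than those of the members compared. The size of 0.32 and the GC bins were not simulated. Computing was done with pandas 2.3.3, scipy 1.17.1, numpy 2.4.6 and Python 3.11.15, and plots were drawn with matplotlib 3.10.9.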

Additional observations from a re-analysis of the deposited data

How the results depend on the processing

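The count of members past the threshold was 0 in each direction and comparison with a factor of 1.5, under pseudocounts of 0.1 and 1, a minimum of 5 TPM, both scalings and a factor of 2. A pseudocount of 1, a minimum of 5 TPM and a factor of 2 could not have raised a count of 0. The count changed with the smaller size of 0.32 on the log2 scale, to 2 higher and 3 lower in LDAH-Tg PM and 4 lower in LDAH-KO PM, and with no minimum TPM, where 1 member (*Abca8a*, log2 ratio -1.02) was lower in LDAH-KO PM. The median of the members in LDAH-KO PM, -0.19, was -0.087 after quantile normalization and -0.026 after centring on length bins, an alternative chosen after seeing the data. Median-ratio scaling moved the ratios of LDAH-KO PM up by about 0.08, and *Abcf3*, *Abcf2*, *Abcd4*, *Abcb1b* and *Abca5* then had ratios above 0. With quantile normalization *Abcc10* did so as well, and in LDAH-Tg PM 1 member (*Abcc5*) was higher by 0.32 in place of 2. *Abcg1* in LDAH-KO PM was 0.02 after centring on length bins, with a transcript that runs past the authors' entry of this gene. The correlation of the ratio with length in LDAH-KO PM ran from -0.45 with the median coding transcript length to -0.68 at a mean TPM of 20 or more. No paired analysis was possible because the table holds group means with no replicate numbers. For the same reason values without each replicate were not run, and depth cannot be weighed.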
